A study of Mus musculus with 16 samples.

Results

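Complement *C1q*, *C3* and *C4*, with a receptor and an inhibitor of the pathway, were followed in the mouse hippocampus at postnatal day (P) 1 and P30. The 8 genes were chosen by name: the chains of C1q (*C1qa*, *C1qb* and *C1qc*), *C3*, *C4a*, *C4b*, the C3a receptor gene *C3ar1* and the C1 inhibitor gene *Serping1*. Each was read by 1 probe, so that 8 of the 25697 probes of the table, and 8 of its 17567 named genes, are described. The arrays were Illumina MouseRef-8 v2 beadchips. The 16 arrays carried hippocampal RNA of wild-type (WT) and *Mef2c*-het mice, 4 arrays for each genotype at each age, and the labels name no treatment. The labels write KO for the *Mef2c*-het mice. Per the methods, these were heterozygous for an allele of *Mef2c* lacking exon 2 in all cells, on the C57BL/6J background, and were bred with WT littermates. The methods describe the hippocampi of P30 only. The labels give neither sex, litter nor chip, and nothing in them says that the arrays of a group came from separate animals, so that the p-values measure the spread between these arrays.

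C1q is the recognition molecule of the classical complement pathway and is made in the brain chiefly by microglia. When it binds a surface, C4 and then C3 are cleaved, and C3 fragments left on a synapse can be recognised by receptors on microglia, a route known for the removal of synapses in the developing brain. C1 inhibitor, the product of *Serping1*, blocks the proteases that travel with C1q, and C3ar1 binds the small fragment C3a.

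Which of these genes the arrays could read decided what could be compared. The probes of *C1qa*, *C1qb*, *C1qc*, *C4b* and *Serping1* had a detection p-value under 0.05 against negative control beads on all 16 arrays. *C3* was detected on 8 arrays, of which 7 were at P30 and 1 was a *Mef2c*-het array at P1. The probes of *C4a* and *C3ar1* were detected on 0 of 16 arrays, at intensities of 105 to 164 and 107 to 180, and give no level at either age. A probe entered a test where at least 4 arrays of the fit detected it, which left 5 of the 8 genes at P1 and 6 at P30 and over all 16 arrays. *C4a* and *C4b* are near-identical copies, RefSeq lists the former as a transcribed pseudogene in the reference mouse, and signal on the *C4b* probe cannot be assigned to 1 copy with certainty. A member probe was read from 14 to 56 beads on an array, with a standard error over the beads of 1.98% to 7.23% of its intensity.

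In GRCm38.p6 the chains of C1q lie side by side on chromosome 4, *C1qb* at chr4:136880126-136886200, *C1qc* at chr4:136889801-136892936 and *C1qa* at chr4:136895916-136898844. *C4b* lies at chr17:34728139-34743902, *C4a* at chr17:34809092-34823460 and *C3* at chr17:57203967-57228136. *C3ar1* lies at chr6:122847140-122856157 and *Serping1* at chr2:84765360-84775444. The 250 bases before the transcription start are shown for *C1qb*, *C1qc* and *C3*, since the chains of C1q moved together between the ages and *C3* stayed near the limit of detection. They are RefSeq sequences of GRCm38.p6, which held an entry for 4 of the 8 genes, read 5′ to 3′ on the strand of the gene. All 3 genes are on the minus strand, and capitals mark a match to a motif searched.
*C1qb*, chr4:136886201-136886450, minus strand: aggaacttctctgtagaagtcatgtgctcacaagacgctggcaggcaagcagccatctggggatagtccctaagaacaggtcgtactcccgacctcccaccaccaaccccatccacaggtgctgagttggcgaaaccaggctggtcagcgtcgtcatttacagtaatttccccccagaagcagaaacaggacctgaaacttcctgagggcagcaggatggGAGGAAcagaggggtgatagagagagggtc
*C1qc*, chr4:136892915-136893164, minus strand: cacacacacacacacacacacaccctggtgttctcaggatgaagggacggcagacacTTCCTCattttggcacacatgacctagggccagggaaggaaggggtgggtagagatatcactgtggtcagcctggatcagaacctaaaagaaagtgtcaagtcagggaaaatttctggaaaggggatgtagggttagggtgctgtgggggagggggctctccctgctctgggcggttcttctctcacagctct
*C3*, chr17:57228137-57228386, minus strand: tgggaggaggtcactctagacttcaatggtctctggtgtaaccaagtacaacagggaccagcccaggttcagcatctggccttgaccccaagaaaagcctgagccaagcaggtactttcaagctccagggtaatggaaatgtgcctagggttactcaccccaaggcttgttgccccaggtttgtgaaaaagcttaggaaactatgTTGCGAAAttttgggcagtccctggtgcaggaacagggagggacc
The start used for *C1qc* lies within the gene record given above, so that its window overlaps the end of that record. The motifs searched on both strands were GAGGAA, a core of PU.1 and ETS sites, TTGCGNAA, a core of C/EBP sites, the interferon response core and the MEF2 consensus. *C1qb* held 1 GAGGAA, from 30 to 25 bases before the start, and *C1qc* held 1 on the opposite strand, from 193 to 188 bases before it. *C3* held 1 match to TTGCGNAA, from 45 to 38 bases before the start. Of 32851 promoter windows of the same length, 23.3% held GAGGAA, 0.67% TTGCGNAA, 2.98% the interferon response core and 2.92% the MEF2 consensus. Neither of the last 2 motifs was found in these 3 windows or in that of *C3ar1*.

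Across the series, 12638 to 14150 probes were detected on an array, and arrays of 1 age correlated with a Pearson r of 0.985 to 0.997. The arrays of each age were cut into 2 clusters by their correlations, so that a split was set in advance. In each age the smaller cluster had a higher 5th percentile of intensity (140 to 161.4, against 106 to 131 on the others). It held replicate 8 of WT and of *Mef2c*-het at P1, and WT replicates 6 and 7 with the array labelled *Mef2c*-het replicate 7 at P30. The *Xist* signal was above that of the Y-linked genes on 5 of 8 arrays at P1 (3 WT and 2 *Mef2c*-het) and on 0 of 8 at P30. By this measure the comparisons of P30 with P1 set arrays of both sexes against arrays of males. They were not adjusted for sex, and its part in the changes with age was not tested. *Mef2c* itself was read by 2 tested probes. Their log2 fold changes, *Mef2c*-het over WT, were 0.07 and -0.01 at P1 and -0.29 and -0.24 at P30, and the groups overlapped for both probes at both ages (two-sided exact permutation p = 0.200 and 0.371 at P30). At P30 the first probe read 8.58, 8.56, 8.92 and 8.66 in WT and 8.13, 8.39, 8.13 and 8.91 in *Mef2c*-het mice, and the second 9.56, 9.75, 9.75 and 9.57 in WT and 9.16, 9.71, 8.93 and 9.87 in *Mef2c*-het mice. On the array labelled *Mef2c*-het replicate 7, the last of these arrays, the first probe thus lay among the WT arrays and the second above all of them. It was not the only such array. *Mef2c*-het replicate 5 of P30 lay among the WT arrays on the second probe (9.71). At P1, *Mef2c*-het replicate 8 lay above all WT arrays on both probes (8.82 and 9.78, against at most 8.51 and 9.67). Replicate 4 of *Mef2c*-het at P1 did so on the second (9.68). *Mef2c*-het replicate 2 of P1 lay among the WT arrays on both probes (8.47 and 9.60). Where these probes lie relative to exon 2 was not checked, so that their signal need not report the genotype. Genotypes are those of the labels.

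**Figure D1:**
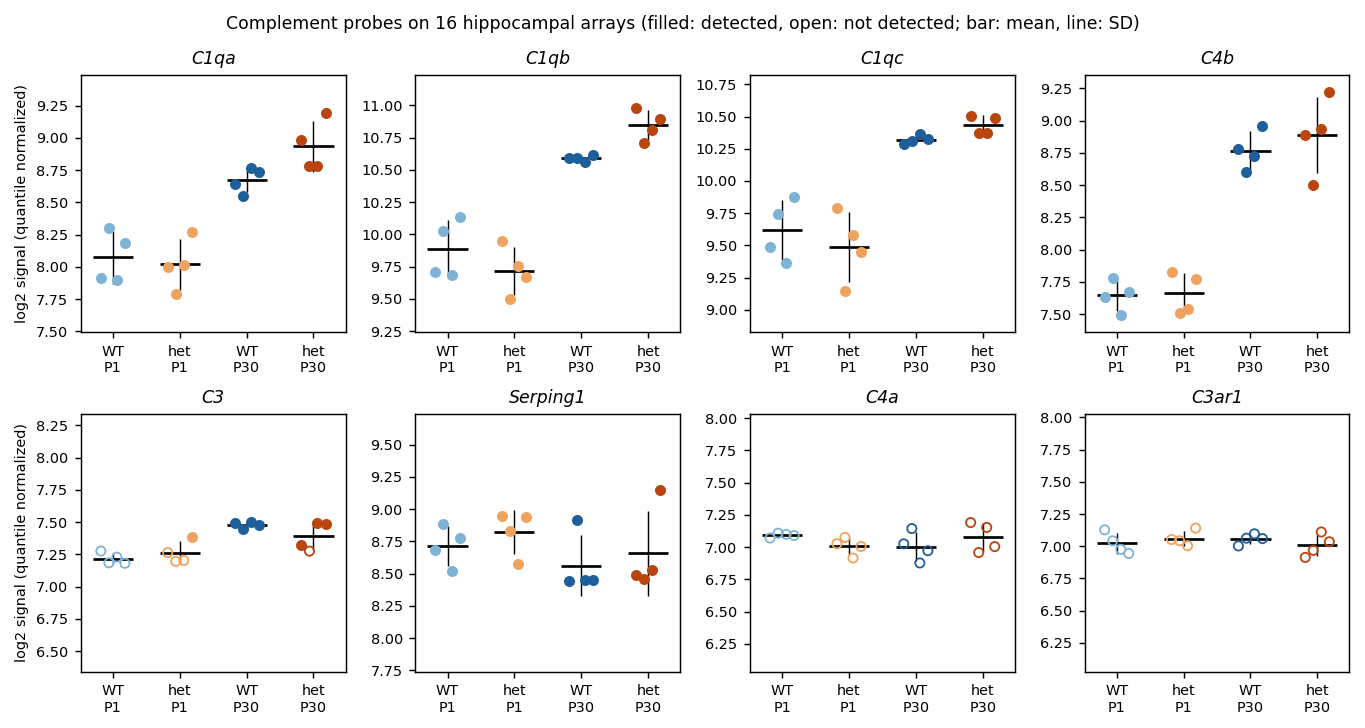
Log2 signal of each complement probe on every array, after quantile normalization over 16 arrays, in WT and *Mef2c*-het (het) mice at P1 and P30. Filled points are arrays that detected the probe, open points arrays that did not, bars are group means and lines the SD (n = 4). Each panel spans the same log2 range. *C1qa*, *C1qb*, *C1qc* and *C4b* separate by age in both genotypes, while *C4a* and *C3ar1* are open throughout.

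The chains of C1q rose between P1 and P30 in both genotypes. In WT the rise was 1.52-fold for *C1qa*, 1.63-fold for *C1qb* and 1.63-fold for *C1qc*, and in *Mef2c*-het mice it was 1.89-fold, 2.19-fold and 1.92-fold. On the log2 scale of all 16 arrays, *C1qb* had values of 9.71, 10.02, 9.69 and 10.13 on the WT arrays of P1. Those of WT at P30 were 10.59, 10.60, 10.56 and 10.62. *Mef2c*-het mice had 9.95, 9.50, 9.75 and 9.67 at P1 and 10.98, 10.71, 10.81 and 10.90 at P30. Every P30 array was above every P1 array of its genotype. Its log2 fold change with age was 0.70 (standard error (SE) 0.11, adjusted p = 2.35e-05 in limma) in WT and 1.13 (SE 0.11, adjusted p = 1.01e-07) in *Mef2c*-het mice. Adjusted p-values of limma are Benjamini-Hochberg values over all probes of the fit.

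*C1qa* encodes the A chain. Its WT values were 7.91, 8.30, 7.89 and 8.19 at P1 and 8.65, 8.55, 8.77 and 8.73 at P30. In *Mef2c*-het mice they were 8.0, 7.79, 8.02 and 8.27, then 8.98, 8.78, 8.78 and 9.19. The ages did not overlap in either genotype, with log2 fold changes of 0.60 (SE 0.12, limma adjusted p = 0.000324) in WT and 0.92 (SE 0.12, adjusted p = 4.41e-06) in *Mef2c*-het mice. *C1qc*, the gene of the C chain, read 9.49, 9.74, 9.36 and 9.88 in WT at P1 and 10.29, 10.31, 10.36 and 10.32 at P30. The *Mef2c*-het arrays read 9.79, 9.14, 9.58 and 9.45 at P1 and 10.51, 10.37, 10.37 and 10.49 at P30. Here too all P30 arrays lay above all P1 arrays of the same genotype, by 0.70 (SE 0.12, limma adjusted p = 8.52e-05) in WT and 0.94 (SE 0.12, adjusted p = 3.85e-06) in *Mef2c*-het mice. The spread of *C1qb* and *C1qc* was small in WT at P30, with an SD of 0.023 and 0.030 (n = 4), against 0.23 for both in WT at P1.

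*C4b*, whose product is the C4 cleaved after C1q has bound, showed the largest fitted change with age of the 6 genes tested. It read 7.63, 7.78, 7.49 and 7.67 in WT at P1 and 8.78, 8.60, 8.72 and 8.96 at P30. In *Mef2c*-het mice the values were 7.82, 7.51, 7.54 and 7.78 at P1 and 8.89, 8.50, 8.93 and 9.22 at P30. The P30 arrays were all above the P1 arrays, with a 2.18-fold rise in WT (log2 fold change 1.12, SE 0.13, limma adjusted p = 9.06e-07) and a 2.34-fold rise in *Mef2c*-het mice (1.23, SE 0.13, adjusted p = 3.30e-07). These sizes depend on the treatment of the background. With normexp background correction the log2 fold changes of *C4b* were 2.01 in WT and 2.14 in *Mef2c*-het mice, and that of *C1qa* was 0.97 in WT and 1.43 in *Mef2c*-het mice.

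*C3*, the central component on which all complement routes meet, was near the limit of detection. In WT it read 7.28, 7.18, 7.23 and 7.18 at P1, where 0 of 4 arrays detected it, and 7.49, 7.44, 7.50 and 7.48 at P30, where all 4 did. Since the P1 values only bound its level, the rise in WT is given as at least 1.12-fold (limma log2 fold change 0.26, SE 0.062, adjusted p = 0.00159), the P30 mean being set against the lowest signal detected on each P1 array. With normexp background correction its log2 fold change in WT was 0.88 (adjusted p = 0.000384). The *Mef2c*-het arrays read 7.26, 7.20, 7.20 and 7.39 at P1, with 1 of 4 detecting it, and 7.32, 7.28, 7.50 and 7.49 at P30, with 3 of 4. These overlapped, and the log2 fold change of 0.13 (SE 0.062) did not pass the adjusted threshold (limma adjusted p = 0.0776, two-sided exact permutation p = 0.114). With normexp the change in *Mef2c*-het mice was 0.44 and passed (adjusted p = 0.0384), as it did without *Mef2c*-het replicate 8 of P1 (0.18, adjusted p = 0.0271) and without *Mef2c*-het replicate 5 of P30 (0.17, adjusted p = 0.0305). Replicate 8 was the only P1 array that detected *C3*. Without it the P30 arrays are set against signals below detection, as in WT.

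*Serping1* did not follow the activators. Its WT values were 8.68, 8.88, 8.52 and 8.77 at P1 and 8.44, 8.91, 8.45 and 8.45 at P30. The *Mef2c*-het values were 8.95, 8.83, 8.58 and 8.94, then 8.49, 8.46, 8.53 and 9.15. At each genotype 3 of the 4 P30 arrays lay below all P1 arrays and 1 lay above them. The log2 fold change was -0.15 (SE 0.15, limma adjusted p = 0.398, 95% interval -0.47 to 0.16) in WT and -0.17 (SE 0.15, adjusted p = 0.367, 95% interval -0.48 to 0.15) in *Mef2c*-het mice. The high arrays, WT replicate 3 and the array labelled *Mef2c*-het replicate 7, also had the highest mean log2 signal of 9 markers of meninges and fibroblasts in their groups, 8.40 (8.01 to 8.13 on the other WT arrays) and 8.37 (8.04 to 8.29 on the other *Mef2c*-het arrays). The summed signal of these markers was 3922 to 6018 in WT and 4678 to 5884 in *Mef2c*-het mice at P30, and *Col3a1* was detected on 0 of these 8 arrays. By that sum *Mef2c*-het replicate 6 (5884) lay above the array labelled *Mef2c*-het replicate 7 (5867). The 2 high arrays also led their groups in the mean log2 signal of 6 markers of border macrophages. It was 7.548 in WT (7.367 to 7.433 on the others) and 7.554 in *Mef2c*-het mice (7.489 to 7.551 on the others). The part of either set of markers in the *Serping1* values was not tested. Without the array labelled *Mef2c*-het replicate 7, *Serping1* fell with age in *Mef2c*-het mice by 0.33 on the log2 scale (adjusted p = 0.0291). In WT the log2 fold change with any 1 array left out was -0.27 to -0.096, and the lowest limma adjusted p was 0.13. A fall in 1 genotype alone is not shown by these values.

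In total, 5 of the 6 tested genes were called higher at P30 than at P1 in WT and 4 of 6 in *Mef2c*-het mice, and 0 were called lower. Those of WT include *C3*, which 0 of 4 WT arrays detected at P1. Its call and its lack of overlap thus rest on signals below detection, and 5 against 4 is no contrast of the genotypes. Of all 14777 probes tested, 28% were called higher in WT and 26.9% in *Mef2c*-het mice, and 31.7% and 31.4% lower. Groups that did not overlap, with P30 above P1, were found for 5 and 4 of the 6 genes, and for 25.3% and 24.3% of all probes. The median log2 fold change of all probes was -0.03 in WT and -0.02 in *Mef2c*-het mice. By group mean, the order of the 3 chains of C1q was *Mef2c*-het P1, WT P1, WT P30 and *Mef2c*-het P30, and only the 2 groups of P1 overlapped as neighbours. For *C4b* only the step from P1 to P30 separated neighbours. For *C3* and *Serping1* every pair of neighbours overlapped.

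Markers of several cell types moved with age beside these genes. Of 15 microglia markers 14 were tested, and 8 rose and 0 fell in WT (median log2 fold change 0.42), while 13 rose and 0 fell in *Mef2c*-het mice (median 0.65). *Csf1r*, the growth factor receptor that microglia need, rose by 1.13 in WT and 1.37 in *Mef2c*-het mice, and *Cx3cr1*, the fractalkine receptor, by 0.69 and 0.64. *Aif1* rose by 0.33 and 0.38 and *Trem2* by 0.30 and 0.66. *Tyrobp*, the adaptor of *Trem2*, had a log2 fold change of -0.06 in WT (adjusted p = 0.758 in limma) and rose by 0.43 in *Mef2c*-het mice (adjusted p = 0.0193). Its changes with age differed between the genotypes by 0.49 (unadjusted p = 0.0325, adjusted p = 0.998 in limma). Calls in 1 genotype and not in the other, and 8 against 13, are no contrast of the genotypes. *Itgam*, a defining marker and part of complement receptor 3, was detected on 0 of 16 arrays. The summed signal of the 14 markers was 6436 to 7416 in WT and 5514 to 6633 in *Mef2c*-het mice at P1, and 9311 to 10960 and 9006 to 11760 at P30. Their part in the rise of *C1q* was not tested. In hippocampal tissue more microglia and more RNA per microglial cell cannot be told apart, and the same holds for any other source.

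**Figure D2:**
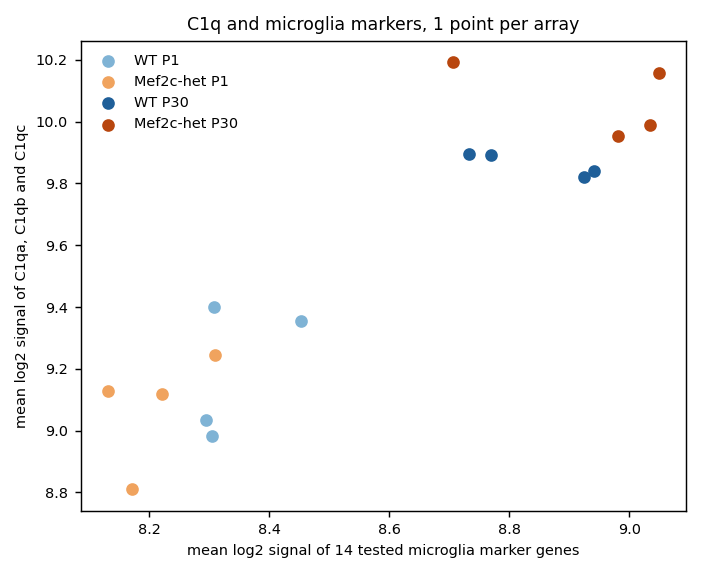
Mean log2 signal of *C1qa*, *C1qb* and *C1qc* against the mean log2 signal of the 14 tested microglia markers, with 1 point per array (n = 4 per group). Both are higher on every P30 array than on every P1 array. Over the 16 arrays the marker mean had a Pearson r of 0.842 with *C1qa*, 0.937 with *C1qb* and 0.914 with *C1qc*. For deviations from the 4 group means it was -0.337, 0.262 and 0.194. Within the P30 arrays, the 4 *Mef2c*-het points lie above the 4 WT points on the C1q axis and overlap them on the marker axis.

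At P30 the chains of C1q were higher in *Mef2c*-het than in WT mice, with groups that did not overlap but differences that did not pass the adjusted threshold. The fold was 1.19 for *C1qa*, 1.20 for *C1qb* and 1.08 for *C1qc*. After normalization over the 8 arrays of P30, the log2 values of *C1qb* were 10.55, 10.56, 10.52 and 10.58 in WT and 10.95, 10.67, 10.77 and 10.86 in *Mef2c*-het mice. Those of *C1qa* were 8.61, 8.52, 8.73 and 8.70 in WT and 8.94, 8.75, 8.75 and 9.15 in *Mef2c*-het mice. *C1qc* had 10.25, 10.27, 10.32 and 10.28 in WT and 10.47, 10.33, 10.33 and 10.45 in *Mef2c*-het mice. In each of the 3 genes all *Mef2c*-het arrays were above all WT arrays, by a margin between the nearest arrays that was small for *C1qa* and *C1qc*.

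The log2 fold changes were 0.26 for *C1qa* (SE 0.098, 95% interval 0.04 to 0.48), 0.26 for *C1qb* (SE 0.070, 95% interval 0.11 to 0.42) and 0.11 for *C1qc* (SE 0.059, 95% interval -0.02 to 0.25). Without adjustment limma gave p = 0.0271, 0.00397 and 0.0831, its adjusted p was 0.976 for all 3, and the two-sided exact permutation p was 0.0286 for each, the smallest that 4 arrays against 4 allow. Of the 6 genes tested 0 were called, 2 had an unadjusted p under 0.05 and 3 did not overlap, all higher. Over all 13413 probes 0.00746% were called, 2.36% had an unadjusted p under 0.05 (0.664% higher) and 1.75% did not overlap (0.574% higher). The 3 chains were read from the same arrays and vary together, so that their differences are not separate observations. Scaling the arrays to a common median in place of quantile normalization left 0 of the 3 chains without overlap, with log2 fold changes of 0.29, 0.30 and 0.15. Within the larger array cluster alone, a setting added once the data had been seen, with 2 WT and 3 *Mef2c*-het arrays, they were 0.25, 0.25 and 0.12. Without the array labelled *Mef2c*-het replicate 7, whose *Mef2c* signals lay among or above those of WT, they were 0.17, 0.25 and 0.097.

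The microglia markers at P30 had a median log2 fold change of 0.08, *Mef2c*-het over WT, with 11 higher and 3 lower of 14 tested, where 44.9% of all probes were higher. None of the 14 passed the adjusted threshold in limma, nor an unadjusted p under 0.05. On the array labelled *Mef2c*-het replicate 7, which had the highest mean of the C1q chains (10.19), the marker mean was the lowest of the 8 arrays of P30 (8.71, against 8.73 to 9.05). Whether the number of microglia differed was not tested.

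At P1 the same chains were not higher in *Mef2c*-het mice. *C1qb* read 9.76, 10.07, 9.74 and 10.18 in WT and 10.00, 9.55, 9.81 and 9.72 in *Mef2c*-het mice, and *C1qa* read 7.93, 8.34, 7.92 and 8.22, against 8.02, 7.81, 8.04 and 8.31. For *C1qc* the WT arrays had 9.54, 9.79, 9.41 and 9.93 and the *Mef2c*-het arrays 9.84, 9.19, 9.63 and 9.50. The genotypes overlapped throughout. The log2 fold changes were -0.06 for *C1qa* (SE 0.13, 95% interval -0.34 to 0.23), -0.17 for *C1qb* (SE 0.13, 95% interval -0.45 to 0.11) and -0.13 for *C1qc* (SE 0.15, 95% interval -0.47 to 0.21). Single arrays move them. Within the larger array cluster alone *C1qb* was -0.074 and *C1qc* -0.026. Without WT replicate 8 they were -0.091 and -0.040, and without *Mef2c*-het replicate 2 -0.097 and -0.0096. *C1qc* was also -0.21 without WT replicate 5 and -0.23 without *Mef2c*-het replicate 1. Limma called 0 of the 5 genes tested at P1, 0 had an unadjusted p under 0.05 and 0 did not overlap, against 0%, 1.62% and 1.29% of the 13566 probes. Of 13 microglia markers tested at P1, 4 lay higher and 9 lower in *Mef2c*-het mice (median -0.14), where 49.3% of all probes were lower, and 0 passed the adjusted threshold, while 5 had an unadjusted p under 0.05.

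The difference between the genotype effects, P30 minus P1, was tested on all 16 arrays. It was 0.43 for *C1qb* (SE 0.15, 95% interval 0.11 to 0.75), 0.32 for *C1qa* (SE 0.17, 95% interval -0.04 to 0.67) and 0.24 for *C1qc* (SE 0.17, 95% interval -0.12 to 0.60). The unadjusted p in limma was 0.0108, 0.0765 and 0.175, and the adjusted p was 0.998 for all 3. Of the 6 genes 0 were called and 1 had an unadjusted p under 0.05, against 0% and 2.96% of the 14777 probes. The microglia markers had a median difference of 0.31 in the same contrast, with 12 higher and 2 lower of 14 (47.2% of all probes were higher), 0 called and 4 with an unadjusted p under 0.05. Within the larger array cluster alone, 0 of the 6 genes kept an unadjusted p under 0.05, and the difference was 0.32 for *C1qb* and 0.14 for *C1qc*. That of *C1qc* was 0.15 without WT replicate 8 of P1 and 0.12 without *Mef2c*-het replicate 2 of P1.

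**Figure D3:**
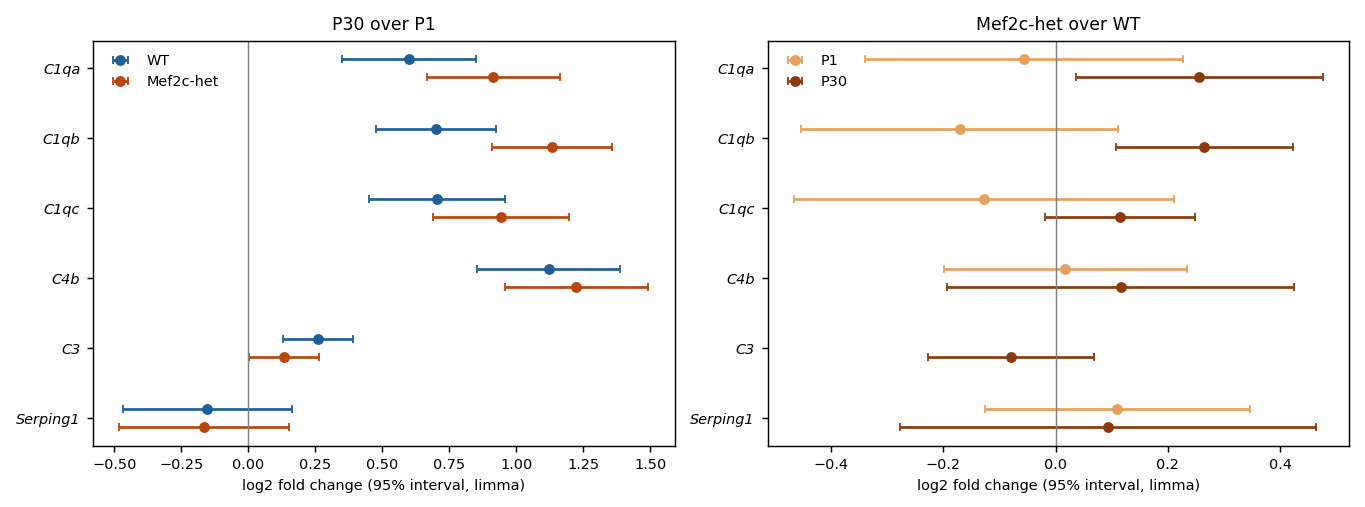
Log2 fold changes of the 6 tested complement genes with their 95% intervals from limma. On the left is P30 over P1 for each genotype, and on the right *Mef2c*-het over WT at P1 and at P30, where *C3* was not tested at P1. The intervals of *C1qa*, *C1qb*, *C1qc* and *C4b* lie above 0 for age in both genotypes, while those for genotype include 0 except for *C1qa* and *C1qb* at P30.

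Downstream of C1q no genotype difference was resolved. *C4b* read 8.75, 8.57, 8.69 and 8.92 in WT at P30 and 8.86, 8.47, 8.90 and 9.18 in *Mef2c*-het mice, which overlapped (log2 fold change 0.12, 95% interval -0.19 to 0.43, two-sided exact permutation p = 0.514). *C3* read 7.48, 7.44, 7.49 and 7.47 in WT and 7.32, 7.28, 7.48 and 7.48 in *Mef2c*-het mice, with 2 low and 2 level arrays in the latter (-0.08, 95% interval -0.23 to 0.07, exact permutation p = 0.314). Its difference was -0.27 with normexp, -0.038 with the replicate block and -0.041 without *Mef2c*-het replicate 5. *Serping1* had a log2 fold change of 0.09 at P30 (95% interval -0.28 to 0.46, exact permutation p = 0.457). That value rests on single arrays, since it was -0.07 without the array labelled *Mef2c*-het replicate 7 and 0.21 without WT replicate 3. The *C4b* difference at P30 likewise was 0.01 without the array labelled *Mef2c*-het replicate 7 and 0.24 without *Mef2c*-het replicate 5. At P1 the log2 fold changes were 0.02 for *C4b* (95% interval -0.20 to 0.23) and 0.11 for *Serping1* (95% interval -0.13 to 0.35, exact permutation p = 0.343).

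**Figure D4:**
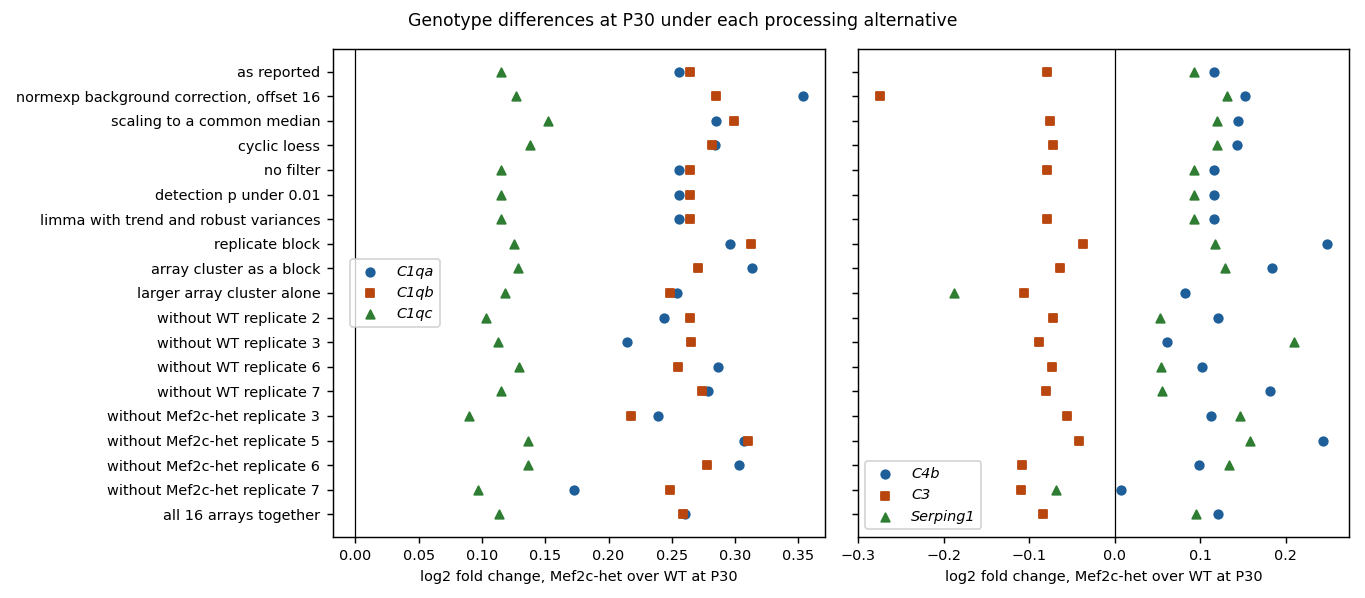
Log2 fold change at P30, *Mef2c*-het over WT, of the chains of C1q (left) and of *C4b*, *C3* and *Serping1* (right) under each processing alternative and with each array left out, 1 row per setting. The chains of C1q stay above 0 in every row, between 0.09 and 0.35. *Serping1* crosses 0 in the larger array cluster alone and without the array labelled *Mef2c*-het replicate 7, and *C3* has no value with the stricter detection threshold.

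Among themselves, *C1qb* and *C1qc* followed each other most closely. As a description over 16 arrays, their deviations from the 4 group means had a Pearson r of 0.943, against 0.593 for *C1qa* with *C1qb* and 0.582 for *C1qa* with *C1qc*. *C1qa* with *C4b* had 0.700 and *C4b* with *Serping1* 0.503. These points share the array, its RNA and its normalization. The genes whose log2 signal was most like the mean of the C1q chains over the 16 arrays were *Ntrk2*, *Hey1*, *Apoe* and *Izumo4* (Pearson r = 0.971 each) and *Pamr1* (0.968), a likeness that includes the difference between the ages. For deviations from the group means, genes most alike were *Fmo1* (r = 0.910), *Fcgrt* (0.894), *S100a1* (0.884) and *Mgst1* (0.881).

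Beyond the 8 genes, 53 complement genes were listed, of which 46 had a probe and 21 were tested over the 16 arrays. In WT 9 rose with age, 5 fell and 7 did not pass the adjusted threshold (median log2 fold change 0.24, or 0.16 with 3 genes at the bound that their undetected age allows, against -0.03 over all probes), and the counts were the same in *Mef2c*-het mice. Among 10 tested regulators 6 rose and 2 fell. *Clu*, the gene of the chaperone clusterin, which restrains the terminal pathway, rose by 1.82 in WT (SE 0.11) and 2.01 in *Mef2c*-het mice (SE 0.11). *Susd4*, a neuronal complement inhibitor gene, rose by 1.82 (SE 0.13) and 1.58 (SE 0.13). *Sez6l2* rose by 1.05 and 1.21 and *Sez6l* by 0.92 and 0.81, both genes of neuronal surface proteins with complement control domains. The 2 regulators that fell were *Sez6*, with log2 fold changes of -0.43 in WT and -0.44 in *Mef2c*-het mice, and *Cr1l* (-0.36 and -0.30).

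Of the classical and lectin activators outside C1q, 4 of 13 were tested and 1 rose and 2 fell. In WT all 3 of these calls are against an age at which 0 arrays detected the gene, so that only bounds are given. *Masp1*, a lectin pathway protease gene, was detected on all 4 WT arrays at P1 and on 0 at P30, and was at least 1.20-fold lower at P30. *Fcna*, a ficolin gene, was likewise at least 1.20-fold lower in WT, and *Masp2* was at least 1.08-fold higher. *C2*, which forms the classical C3 convertase with C4, had a log2 fold change of 0.26 in WT (SE 0.11, limma adjusted p = 0.0571). *C1ra*, a protease gene of the C1 complex, was detected on 0 of 16 arrays. Of the alternative and terminal pathway 4 of 10 were tested, 2 rose and 0 fell. *Cfp*, the gene of properdin, rose by 0.55 in WT (SE 0.13) and *C8b* by 0.16 (SE 0.066). Of 10 receptor genes 3 were tested and only *Cd93* was called, a gene first described as that of a C1q receptor and expressed in endothelium. It fell by 1.21 on the log2 scale in WT (SE 0.17) and by 1.12 in *Mef2c*-het mice (SE 0.17). *Itgam* and *Itgb2*, which together encode complement receptor 3, were detected on 0 of 16 arrays, as were *Itgax*, *Cr2*, *C5ar1*, *C5ar2* and *Vsig4*. The neuronal marker *Snap25* was likewise detected on 0 of 16 arrays, so that a probe without detection does not show that its gene is not expressed.

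**Figure D5:**
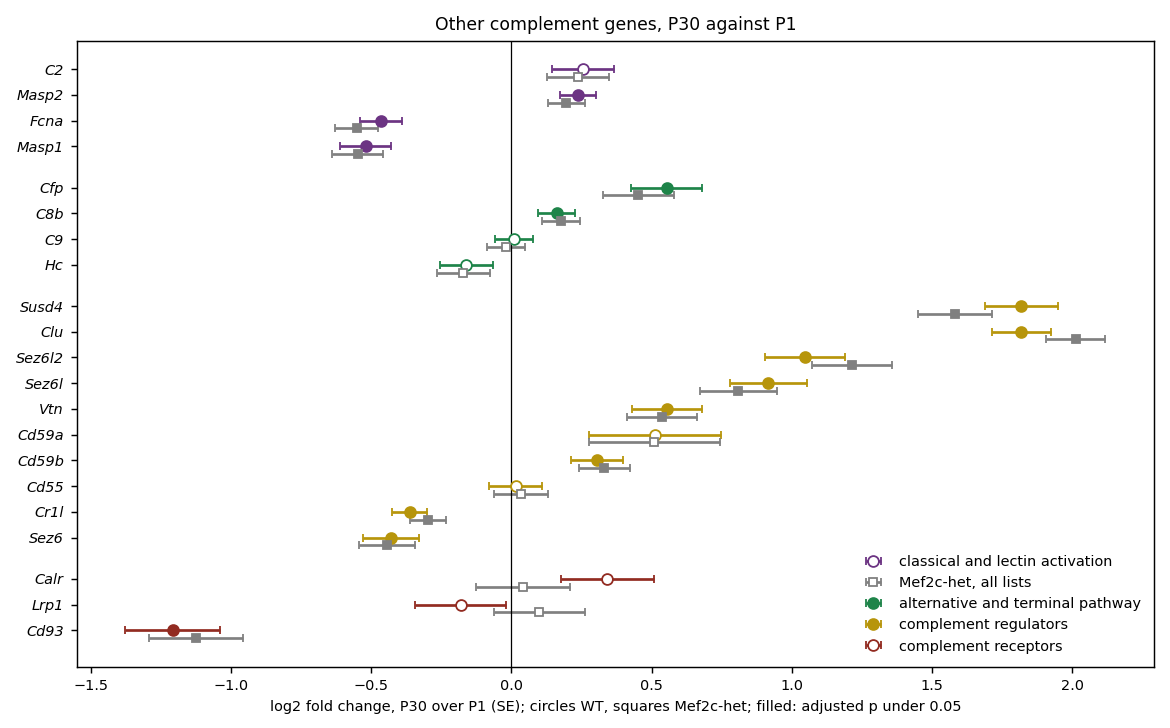
Log2 fold change, P30 over P1, of the 21 other complement genes tested, grouped by role, with the SE. Coloured circles are WT and grey squares *Mef2c*-het mice, filled where the adjusted p was under 0.05. *Susd4* and *Clu* rose most and *Cd93* fell most, in both genotypes. Values of *Masp1*, *Masp2* and *Fcna* are fitted against arrays that did not detect them.

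Genes of engulfment and of the signals around it also rose with age. Of 14 tested, 4 of which are microglia markers counted above, 12 rose and 0 fell in WT (median log2 fold change 0.73), and 13 rose in *Mef2c*-het mice. *Cx3cl1*, the neuronal ligand of *Cx3cr1*, rose by 3.39 in WT (SE 0.11), *Mertk*, a receptor for engulfment on astrocytes and microglia, by 1.83 (SE 0.093), and the pentraxin genes *Nptx1* and *Nptx2* by 2.13 (SE 0.13) and 1.71 (SE 0.15). Of 8 genes for synaptic proteins with a C1q domain 5 were tested, and 3 rose and 1 fell in both genotypes. *C1ql2* rose by 4.94 in WT (SE 0.083), *Cbln4* by 0.79 (SE 0.16) and *C1ql3*, detected on 1 of 4 WT arrays at P1, by 0.78 (SE 0.17). *Cbln1* fell by 2.35 on the log2 scale (SE 0.12). By genotype limma called 0 genes of these lists. Of the complement genes outside the 8, 1 of 19 had an unadjusted p under 0.05 at P1 and 0 of 17 at P30. For the engulfment genes it was 2 of 14 and 0 of 14, and for the C1q-domain genes 0 of 4 and 0 of 5. Over all probes it was 1.62% at P1 and 2.36% at P30. The 2 engulfment genes were *Trem2* and *Tyrobp*, which are also counted among the microglia markers at P1.

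Other cell types changed over the same interval. In WT 8 of 9 astrocyte markers rose (median log2 fold change 0.91), as did 9 of 9 oligodendrocyte markers (4.49, or 4.31 with 4 of them at such a bound) and 5 of 7 neuronal markers, of which the other 2 fell. Of 6 markers of border macrophages, which also express *C1q*, 1 rose and 4 fell, with a summed signal of 1317 to 1635 in WT at P1 and 1011 to 1148 at P30. Endothelial markers were split, with 3 up and 3 down of 8. Of 7 markers of the choroid plexus 1 rose and 1 fell, of 9 of meninges and fibroblasts 1 rose and 2 fell, and 1 of 4 of monocytes and neutrophils and 2 of 3 of blood fell. The choroid plexus sum varied most between arrays of a group, from 6904 to 34050 in WT at P1 and from 1718 to 22870 in WT at P30. By genotype, all 8 endothelial markers were lower in *Mef2c*-het mice at P30 (median log2 fold change -0.10), as were 55.1% of all probes. All 7 tested at P1 were higher (0.042), as were 50.7% of all probes. All 8 had a negative difference of the effects (-0.14), as had 52.8% of all probes. The 3 blood markers were higher at P30 (0.10, with 44.9% of all probes) and lower at P1 (-0.13, with 49.3%). Markers of a list share the arrays and are not separate observations. At P30 limma called 0 markers of any of these lists by genotype, and 0 had an unadjusted p under 0.05. Their part in the complement values was not tested.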

How the data were processed

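Hippocampal RNA of 16 samples was hybridised to Illumina MouseRef-8 v2 beadchips. The authors deposited a linear bead intensity for every one of 25697 probes and every array, not normalized between arrays. With it they deposited a detection p-value, computed against the negative control beads, the bead count and the bead standard error in intensity units. Subtraction of a local background is not given in the sources used here. Per the methods the authors took log2 and quantile normalized, and the submitters' processing notes name lumi and limma.

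Here intensities were transformed to log2 and quantile normalized in R 4.3.3, separately for the arrays of each fit. Probes detected at p under 0.05 on at least 4 arrays of the fit were tested two-sided with limma 3.58.1 (lmFit, eBayes), and Benjamini-Hochberg values over all tested probes were called under 0.05. The genotypes were compared in separate fits of 8 arrays at P1 (13566 probes) and P30 (13413 probes), whose log2 values are on scales of their own. The ages, and the difference of the genotype effects, were compared in 1 fit of 16 arrays (14777 probes) with a mean for each group. The exact permutation test on a single probe enumerated all 35 two-sided splits. Intervals are 95% intervals of limma. Names came from RefSeq (GRCm38.p6), matched for 25376 probes, and the table's C1qg is *C1qc*. Lists were counted on the brightest probe of each gene. Where no array of a group detected a probe, each array was set at the higher of the probe's own signal and the lowest detected signal, which bounds the fold.

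The 8 genes and all lists were chosen with earlier results of these data known. The rule for names took all probes of the 8 genes, the *Mef2c* probes, 6 microglia genes, up to 4 called genes of each list by size of the change in WT, and the 5 genes most like *C1q*. Of the genes under this rule, 2 are not reported here. *C2*, *Col3a1*, *Sez6*, *Cr1l* and the genes named as not detected were named after their values were seen. Alternatives were normexp (offset 16), a common median, cyclic loess, a detection threshold of 0.01 or none, and trend and robust variances. Further ones were the replicate number or array cluster as a block, all 16 arrays together and single arrays left out. Sex, read from *Xist* and Y-linked genes, was a covariate in the fit of P1 only. The larger array cluster alone was an alternative added afterwards. Precision is limited by the number of arrays. The steps were tested on simulated data.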

Additional observations from a re-analysis of the deposited data

Results flagged for a closer look

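Of 32 groups of 4 arrays of the 8 probes, 2 held an array far from the others, where chance gives 1.6. Both were of *Serping1* at P30. WT replicate 3 had a log2 signal of 8.88, against 8.42 for the nearest array, a gap that made up 0.986 of the range of the group. The array labelled *Mef2c*-het replicate 7 had 9.11, against 8.5 for the nearest, a gap of 0.900 of the range.

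The genotype effect on *C1qb* differed between P30 and P1 by 0.43 on the log2 scale, with an unadjusted p of 0.0108 and an adjusted p of 0.998 in limma.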

How the results depend on the processing

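All 4 members called in both genotypes with age (*C1qa*, *C1qb*, *C1qc* and *C4b*) kept their direction and their adjusted p under 0.05 under all 8 alternatives and with each of 16 arrays left out. The count of calls with age was 4 to 5 in both genotypes. The alternatives for age did not include sex as a covariate. At P1, P30 and for the difference of the effects, 0 members were called under any alternative. Scaling to a common median gave 0 chains of C1q without overlap at P30 in place of 3, and 2 members with an unadjusted p under 0.05 for the difference of the effects in place of 1. That count was also 2 with the array cluster as a block and 0 in the larger array cluster alone, and 1 to 2 with an array left out (2 without WT replicate 1 or 5 or *Mef2c*-het replicate 1 or 8 of P1). At P30 the count of members with an unadjusted p under 0.05 was 1 to 2 with an array left out, 1 without WT replicate 2 or 3 or *Mef2c*-het replicate 3 or 7. Signs of small values turned. In the larger array cluster alone *C4b* at P1 was -0.015 and *Serping1* at P30 -0.19. The difference of the effects for *Serping1* was 0.014 with scaling to a common median, 0.080 with the replicate block and 0.024 with the array cluster as a block. With an array left out, *C1qa* at P1 ranged from -0.14 to 0.023, *C4b* at P1 from -0.037 to 0.070, *Serping1* at P30 from -0.069 to 0.21, and the difference of the effects from -0.18 to 0.10 for *Serping1* and from -0.0078 to 0.23 for *C4b*. The cause was not tested in any of these. Replicate numbers did not pair the arrays throughout (the deviations of same-numbered arrays correlated at 0.090, 0.402 and 0.828 at P1 and at 0.185, -0.532 and 0.708 at P30). For numbers 4 and 8 of P1, the WT array most like the *Mef2c*-het array had the same number. This did not hold for number 1 of P1 or for numbers 3, 6 and 7 of P30. With the replicate block, 3 members had an unadjusted p under 0.05 at P30, 0 were called at either age, and the probes with an unadjusted p under 0.05 numbered 949 at P1 in place of 220 and 502 at P30 in place of 316. At P30 they numbered 159 with scaling to a common median, 822 with no filter, 571 with the array cluster as a block and 1367 without the array labelled *Mef2c*-het replicate 7. No paired analysis was possible because the P1 and P30 groups of a genotype share no replicate numbers, as far as the ages are concerned. The detection limit leaves *C3* with a bound at P1 and *C4a* and *C3ar1* with no comparison.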
